A study of Mus musculus with 4 samples.

Results

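Crystallin genes, 10 in number, were measured in mouse retina on 4 microarrays, 2 per genotype, after removal of the rod transcription factor gene Nrl in adult mice. The list held 2 α genes (Cryaa and Cryab), 6 β genes (Cryba1, Cryba2, Cryba4, Crybb1, Crybb2 and Crybb3) and 2 γ genes (Crygd and Crygs). All 10 were measured, each by its only probe set with a single gene symbol, among 19421 genes in all. The knockout animals were Nrlflox/flox; CAG-CreERTM mice and the control animals Nrlflox/+; CAG-CreERTM mice, so that an intact Nrl allele was left in control. Both genotypes thus carried the Cre transgene, whose CAG promoter is active in most cell types, and both received 4-hydroxytamoxifen once a day by intraperitoneal injection on postnatal days 42 to 44. Whole retinas were taken on postnatal day 63, 19 days after the last injection, and each array held total RNA of 4 retinas from 2 animals. Values are log2 levels of the authors' processed table, and a log2 difference is knockout minus control, given with its moderated standard error (SE). In whole tissue, fewer cells of a type and less RNA per cell cannot be told apart.

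Crystallins are the main soluble proteins of the lens. The α crystallins are small heat shock proteins that hold unfolding proteins in solution, and they are also made outside the lens, where αB crystallin is known as a stress protein of glia and muscle. The β and γ crystallins form a separate superfamily of structural proteins packed at high concentration in lens fibre cells, and several of them are transcribed at a low level in retina. Transcription factors of the Maf family, to which Nrl belongs, bind a palindromic Maf recognition element, and c-Maf activates crystallin genes in the lens through it. The retina lies close to the lens at dissection, so RNA of lens cells can enter a retinal sample.

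None of the crystallins was called at an adjusted p under 0.05 by limma, where 0.201% of all genes were (39 of 19421, 0.139% higher and 0.0618% lower). An unadjusted p under 0.05 was reached by Crygd and Crygs, both lower in knockout, which is 2 of 10 against 3.37% of all genes in that direction and 7.07% in either. Crygd was at 58.6% and Crygs at 69.2% of the control signal. The other 8 genes had log2 differences from −0.18 to 0.091, and their knockout and control levels overlapped, as in 64.6% of all genes. The median over the 10 genes was −0.061, against −0.0026 over all genes.

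The arrays themselves were similar in overall signal. Their medians over 21897 probe sets lay between 5.99 and 6.04, and Pearson's r between arrays, taken across probe sets that are not independent replicates, ran from 0.987 to 0.990. Nrl had levels of 7.57 and 7.05 in knockout and 8.21 and 8.13 in control, a log2 difference of −0.86 (SE 0.18, limma adjusted p = 0.289). The rod transducin gene Gnat1 stood at 9.46 and 9.76 in knockout and 12.65 and 12.58 in control (log2 difference −3.01, limma adjusted p = 0.00586). Replicate number went with the sex of the pools. Xist, transcribed from an inactive X chromosome, stood at 4.07 and 10.66 in knockout replicates 1 and 2 and at 4.09 and 10.47 in control replicates 1 and 2, and the Y-linked Kdm5d at 8.06 and 4.49 in knockout and 8.12 and 5.02 in control, with Uty running the same way. A difference between replicates 1 and 2 can therefore not be told apart from a difference between the sexes.

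**Figure D1:**
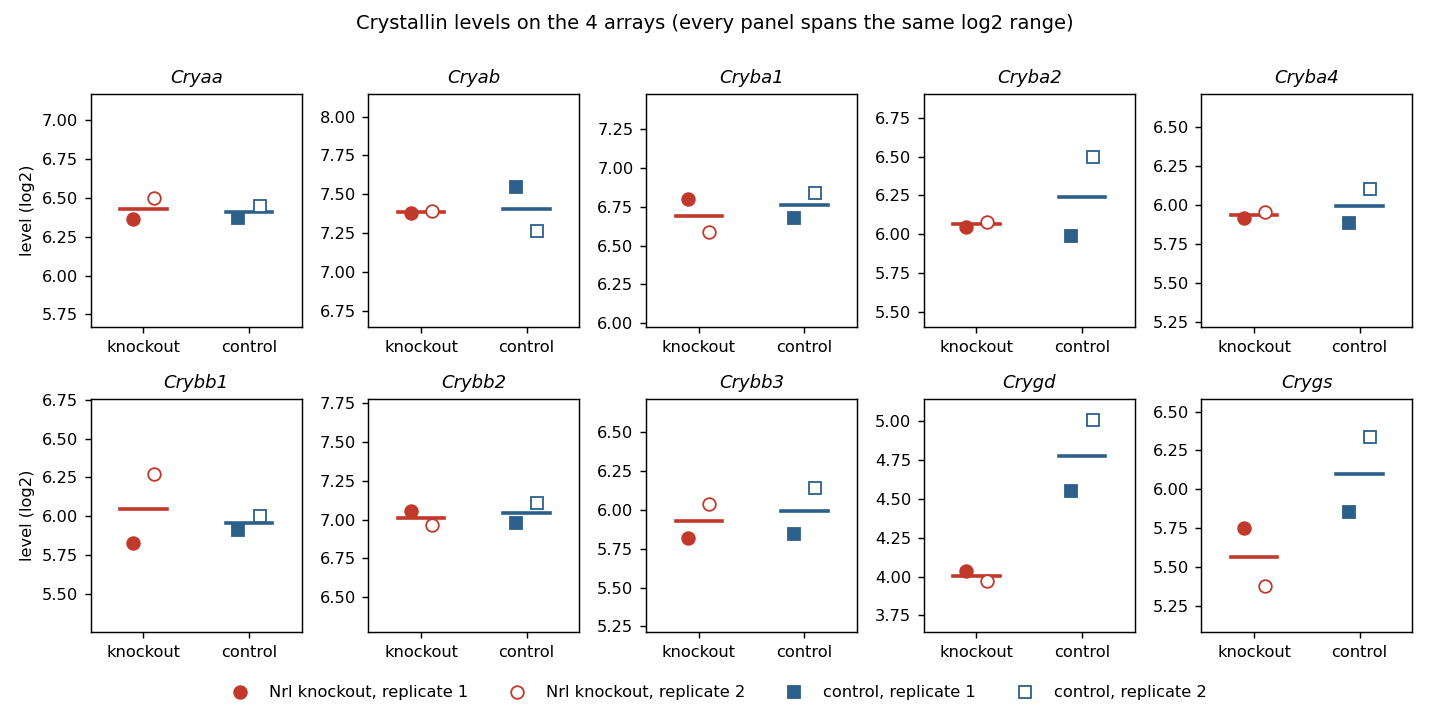
Log2 level of each crystallin gene on the 4 arrays, with the 2 Nrl-knockout pools (circles) left of the 2 control pools (squares) and the group mean as a line, each panel spanning the same log2 range. For Crygd and Crygs the knockout pools lie below both control pools, as in 18.4% of all genes. The groups overlap for the other 8 genes, as in 64.6% of all genes.

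Both α crystallins had nearly the same mean in the 2 genotypes. Cryaa, the lens-enriched α crystallin, had levels of 6.36 and 6.50 in knockout and 6.37 and 6.44 in control. The knockout mean was 6.43 ± 0.10 and the control mean 6.41 ± 0.05 (SD, n = 2 each), a log2 difference of 0.0235 (SE 0.11, 95% interval −0.23 to 0.28, limma adjusted p = 0.986). Its control values lay between the knockout values, and its whole range over the 4 arrays, 0.14, was the smallest of the 10 genes. Cryab, the α crystallin that other tissues make under stress, had 7.38 and 7.39 in knockout and 7.55 and 7.26 in control. The knockout values lay between the control values, which differed by 0.28 from each other, and the log2 difference was −0.018 (SE 0.13, 95% interval −0.32 to 0.29, limma adjusted p = 0.993). These intervals, as for all genes here, are not adjusted for the number of genes. The span that RefSeq annotates for Cryab on chromosome 9 also holds Hspb2, a small heat shock protein gene of muscle, which had 5.89 and 5.79 in knockout and 5.84 and 5.85 in control. Where the probes of either gene lie was not analysed here.

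None of the 6 genes of β crystallins, abundant structural proteins of the mature lens, passed. Cryba1, which encodes βA3 and βA1 crystallin and is also known from retinal astrocytes, had 6.80 and 6.58 in knockout and 6.68 and 6.84 in control, with a log2 difference of −0.069 (SE 0.12, limma adjusted p = 0.967). Crybb2, the gene of the main basic β crystallin, had 7.06 and 6.96 in knockout and 6.98 and 7.11 in control, with a log2 difference of −0.030 (SE 0.11, limma adjusted p = 0.983). In each of these genes the knockout arrays straddled control replicate 1. Cryba4 had 5.92 and 5.95 in knockout against 5.88 and 6.10 in control, so that both knockout values lay between those of control (log2 difference −0.056, SE 0.11, limma adjusted p = 0.975). Crybb3 had 5.82 and 6.04 in knockout and 5.85 and 6.14 in control (log2 difference −0.066, SE 0.14, limma adjusted p = 0.976), and replicate 2 was the higher one in either genotype. Cryba4 and Crybb3 lay close to the array medians of 5.99 to 6.04, where low levels and background cannot be separated. Crybb1, the only β gene with a positive value, stood apart on a single knockout array. It had 5.83 and 6.27 in knockout and 5.91 and 6.003 in control, a log2 difference of 0.091 (SE 0.16, limma adjusted p = 0.966), which was −0.13 without knockout replicate 2. The RefSeq spans of Cryba4 and Crybb1 overlap on chromosome 5, with Crybb2 and Crybb3 neighbours further along it, and signal shared between such neighbours was not tested.

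Cryba2, the gene of βA2 crystallin, was high on 1 control array. Its knockout levels of 6.05 and 6.08 stood close to control replicate 1, at 5.99, while control replicate 2 was at 6.50. The log2 difference of −0.18 (SE 0.17, 95% interval −0.61 to 0.25, limma adjusted p = 0.912) was smaller than the gap of 0.51 between the 2 control pools. Without control replicate 2 it was 0.077, and without control replicate 1 it was −0.44 (unadjusted p = 0.0161, adjusted p = 0.640).

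The γ crystallins were the only members whose groups did not overlap, with both knockout arrays below both control arrays, as in 18.4% of all genes. Crygd, the gene of γD crystallin of the lens core, had 4.04 and 3.97 in knockout and 4.55 and 5.01 in control. The knockout mean was 4.01 ± 0.05 and the control mean 4.78 ± 0.32 (SD, n = 2 each), a log2 difference of −0.77 (SE 0.16, 95% interval −1.17 to −0.38). It had the smallest p of the 10 genes by limma, 0.00286, but not after correction over all genes (adjusted p = 0.297). Its knockout level was nearly constant, with 0.065 between the pools, and the larger gap, 0.45, was in control. Crygd had the lowest levels of the 10 genes, under the array medians of 5.99 to 6.04. The Y-linked Kdm5d still read 4.49 in knockout replicate 2 and 5.02 in control replicate 2, where Xist was high. The signal of Crygd can therefore not be told from background in either genotype. Background can narrow the spread between pools and the fold change. The differences were −0.51 in replicate 1 and −1.03 in replicate 2.

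Crygs, the gene of γS crystallin, which lens cells make into adult life, had 5.75 and 5.38 in knockout and 5.86 and 6.33 in control. On every array but control replicate 2 it lay under the array medians of 5.99 to 6.04, where low levels and background cannot be separated. The knockout mean was 5.56 ± 0.26 and the control mean 6.10 ± 0.34 (SD, n = 2 each), with a log2 difference of −0.53 (SE 0.20, 95% interval −1.01 to −0.052, unadjusted p = 0.0350, limma adjusted p = 0.655). Knockout replicate 1 and control replicate 1 were only 0.11 apart, and the difference in replicate 2 was −0.96. With the replicate number as a block, and so with the sex of the pools, the unadjusted p of Crygs was 0.0615 and that of Crygd 0.00448 (limma adjusted p = 0.618 and 0.379). In Crygd and Crygs alone of the 10 genes the difference between genotypes exceeded the gap within each group, as it did in 24.3% of all genes. Leaving out control replicate 2 gave −0.54 for Crygd (unadjusted p = 0.00784, limma adjusted p = 0.704). It gave −0.29 for Crygs (unadjusted p = 0.197, limma adjusted p = 0.785).

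**Figure D2:**
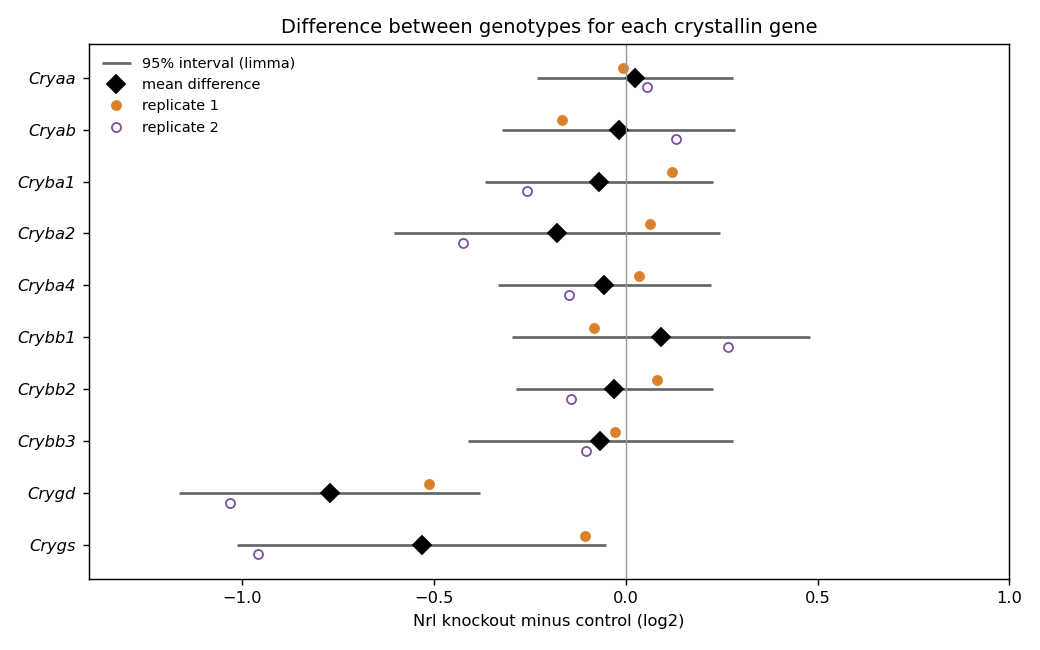
Nrl knockout minus control on the log2 scale for each crystallin gene, with the mean difference (diamond), its unadjusted 95% interval from limma (line) and the difference within replicate 1 (filled circle) and replicate 2 (open circle). Crygd lies at −0.77 and Crygs at −0.53, and the intervals of the other 8 genes include 0 and run from −0.61 at the lowest to 0.48 at the highest.

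Crygd lies in a row of γ crystallin genes on chromosome 1 next to Crygc, Crygb and Cryga, with Crygf further along. These relatives are close in sequence, and hybridisation shared between their probe sets was not tested. Crygc had 4.98 and 4.91 in knockout and 5.14 and 5.15 in control, a log2 difference of −0.20 (SE 0.10, limma adjusted p = 0.763). Crygf had −0.11, Cryga −0.088 and Crygb −0.075 on the same scale, with adjusted p-values of 0.916, 0.945 and 0.953. All 4 lay below 0, with a median of −0.099, where 9894 of 19421 genes lay below 0. In 1 of them, Crygc, both knockout arrays lay below both control arrays, as in 18.4% of all genes. Cryge was not analysed here.

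Knockout lay below control in both γ genes, as in 18.4% of all genes, while the levels of Cryaa overlapped. The start-proximal sequences of these genes are shown for that reason. They are the 250 bases before the RefSeq transcription start in GRCm38.p6, on the minus strand at chr1:65063441-65063690 for Crygd and at chr16:22811411-22811660 for Crygs, and on the plus strand at chr17:31677681-31677930 for Cryaa. Capitals mark matches, on either strand, to TGCTGA, the core of either arm of the Maf recognition element, and to the TATA box letters TATAAA and TATATA.
Crygd: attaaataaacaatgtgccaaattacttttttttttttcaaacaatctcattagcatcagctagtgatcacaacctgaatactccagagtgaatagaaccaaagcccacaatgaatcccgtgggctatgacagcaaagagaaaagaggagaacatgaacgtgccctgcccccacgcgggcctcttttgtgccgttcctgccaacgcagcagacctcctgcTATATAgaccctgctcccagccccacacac
Crygs: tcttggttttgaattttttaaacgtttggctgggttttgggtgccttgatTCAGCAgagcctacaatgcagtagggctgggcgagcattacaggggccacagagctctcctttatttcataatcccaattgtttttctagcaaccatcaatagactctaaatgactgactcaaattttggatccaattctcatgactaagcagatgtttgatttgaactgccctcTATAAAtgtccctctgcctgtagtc
Cryaa: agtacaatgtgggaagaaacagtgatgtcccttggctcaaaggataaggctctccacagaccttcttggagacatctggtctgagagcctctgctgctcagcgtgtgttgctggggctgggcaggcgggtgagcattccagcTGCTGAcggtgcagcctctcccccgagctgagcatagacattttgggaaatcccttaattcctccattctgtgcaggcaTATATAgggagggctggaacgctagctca

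RefSeq windows were found for 9 of the 10 genes, all but Cryab. The letters TGCTGA occurred in 7 of these 9 windows (Cryaa, Cryba1, Cryba2, Cryba4, Crybb1, Crybb3 and Crygs), against 16.1% of 32851 windows of the same length over all genes. In Crygs it began 200 bases and in Cryaa 108 bases before the start, and Crygd had none. TATAAA was found in Cryba1, Crybb1 and Crygs, against 12.4% of windows, and TATATA in Cryaa and Crygd, against 5.25%. In Crygd and Cryaa it began 30 and 29 bases before the start. The heat shock element letters GAANNTTC were found in none of the 9 windows and in 6.69% of all windows. No matches overlapped in these 9 windows. A match is a description of the letters and not of binding.

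Across arrays, the crystallins were highest on control replicate 2. That array had the highest level for 7 of the 10 genes (Cryba1, Cryba2, Cryba4, Crybb2, Crybb3, Crygd and Crygs), against 27% of all genes. Crybb1 and Cryaa were highest on knockout replicate 2 and Cryab on control replicate 1. With each gene centred on its own mean, the 10 genes averaged −0.087 and −0.074 in knockout replicates 1 and 2 and −0.026 and 0.19 in control replicates 1 and 2. Control replicate 2 was above control replicate 1 for 9 of the 10 genes, against 52% of all genes, by 0.19 at the median. The largest gaps were 0.51 for Cryba2, 0.48 for Crygs and 0.45 for Crygd, and the exception was Cryab at −0.28. Between the knockout pools 6 of the 10 genes were higher in replicate 2, with a median gap of 0.021. The genotype difference of the list had a median of −0.017 in replicate 1 and −0.15 in replicate 2, and a mean of −0.060 in replicate 1 and −0.26 in replicate 2. Much of these means came from Crygd and Crygs. The other 8 genes averaged a difference of 0.0019 in replicate 1 against −0.078 in replicate 2, and on control replicate 2 their centred levels averaged 0.094. In 7 of the 10 genes the replicates had opposite signs, and in the other 3, Crybb3, Crygd and Crygs, both were negative.

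Lens fibre genes other than crystallins were read on the same arrays, because RNA of lens cells can enter a retinal sample. Of 13 measured, 12 did not pass over all genes, 6 of these above 0 and 6 below, and Tdrd7 fell. Mip, the aquaporin of lens fibres, had 5.24 and 5.61 in knockout and 5.29 and 5.44 in control. Lim2, a fibre membrane protein, had 5.35 and 5.80 in knockout and 5.26 and 5.70 in control, so replicate 2 was the higher one by about the same step in each genotype, 0.45 in knockout and 0.44 in control. The beaded filament genes did not follow each other. Bfsp1 had 5.28 and 5.29 in knockout and 5.06 and 5.19 in control, and Bfsp2 5.35 and 5.67 in knockout and 5.71 and 5.40 in control. The log2 differences were 0.059 for Mip, 0.090 for Lim2, 0.16 for Bfsp1 and −0.050 for Bfsp2, with limma adjusted p-values from 0.845 to 0.982. On every array Mip, Lim2, Bfsp1 and Bfsp2 lay under the array medians of 5.99 to 6.04, where low levels and background cannot be separated. Tdrd7 and Caprin2 had the highest levels of the 13, and the tissue their signal came from was not tested. Whether the pools held lens RNA was therefore not tested by this list.

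**Figure D3:**
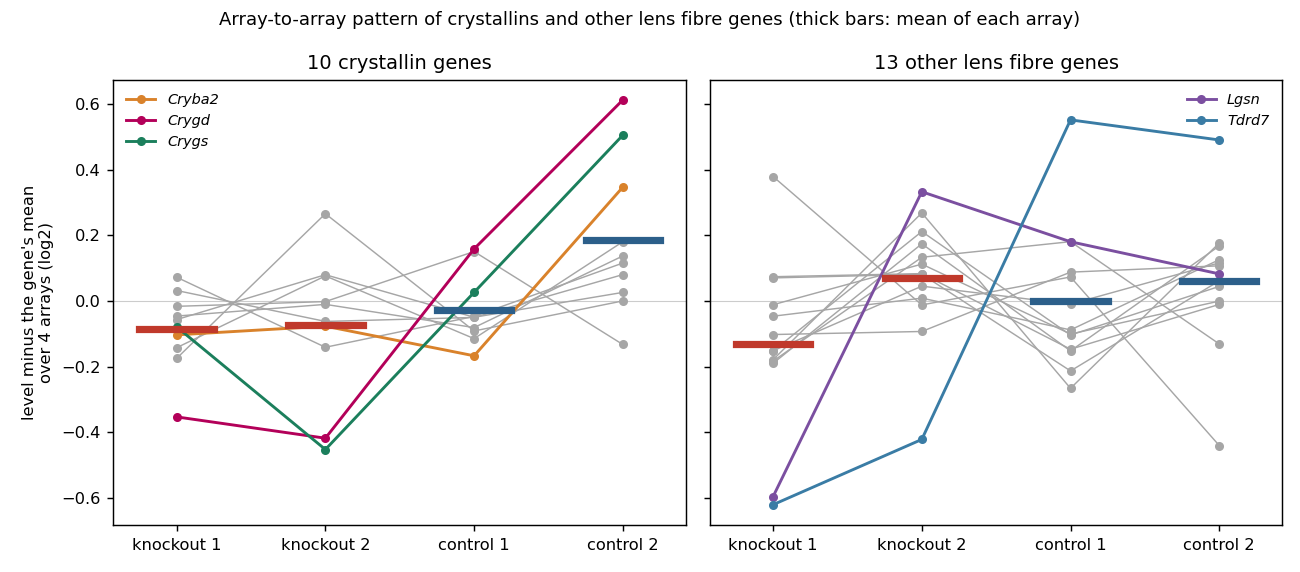
Level of each gene minus its own mean over the 4 arrays, on the log2 scale, for the 10 crystallins (left) and 13 other lens fibre genes (right), with thick bars for the mean of each array. The crystallin mean is highest on control replicate 2, at 0.19, and the other lens fibre genes average 0.071 on knockout replicate 2 and 0.061 on control replicate 2.

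The 13 other lens fibre genes averaged −0.13 and 0.071 in knockout replicates 1 and 2 and −0.00050 and 0.061 in control replicates 1 and 2. Their highest array was knockout replicate 2 for 7 genes and control replicate 2 for 3, against 26.5% and 27% of all genes. Control replicate 2 was above control replicate 1 in 9 of the 13, against 52% of all genes. The median gap was 0.13, beside the 0.19 of the crystallins. Knockout replicate 2 was above knockout replicate 1 in 12 of the 13, where 10226 of 19421 genes were. The median gap was 0.20, beside 0.021 for the crystallins. The genotype difference of the 13 had a median of −0.016, with −0.038 in replicate 1 and 0.092 in replicate 2. Leaving out 1 gene, Tdrd7, moved these array means. The other 12, a selection made after the values were seen, averaged −0.091 and 0.11 in knockout and −0.047 and 0.025 in control. Tdrd7, a Tudor domain protein of RNA granules whose loss causes cataract, had 7.64 and 7.84 in knockout and 8.82 and 8.76 in control, and fell by 1.04 (SE 0.11, limma adjusted p = 0.0402). Its control pools were 0.061 apart.

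Genes listed as markers of other tissues next to the retina were read on the same arrays. The 7 lens epithelium genes had no call and a median of 0.072. Foxe3, their defining transcription factor, had 6.17 and 6.22 in knockout and 5.95 and 6.07 in control (log2 difference 0.18, limma adjusted p = 0.808). Sox1 had 0.16 (limma adjusted p = 0.909). Control replicate 2 was the highest array for 0 of the 7 genes, against 27% of all genes. Pax6, at 8.97 to 9.08 over the arrays, and Prox1, at 8.16 to 8.44, had the highest levels of the 7. The tissue their signal came from was not tested. Ciliary body, iris and cornea genes, 10 in number, had no call and a median of 0.079. The mean level of these genes, 5.24 to 5.47 over the arrays, lay under the array medians of 5.99 to 6.04, where low levels and background cannot be separated. All 10 were higher in control replicate 2 than in control replicate 1, against 52% of all genes, by 0.16 at the median. Krt14, a keratin of basal epithelia, had the smallest p of these, with a log2 difference of −0.25 (limma adjusted p = 0.691), and Krt5 had 0.18 (adjusted p = 0.842). The 12 pigment epithelium genes had no call and a median of −0.084. Among these, 8 were highest on control replicate 1 and 1 on control replicate 2, against 26% and 27% of all genes. Rpe65, the retinoid isomerase, had 6.72 and 6.37 in knockout and 7.31 and 6.60 in control (adjusted p = 0.822), and Dct, of melanin synthesis, had a log2 difference of −0.32 (adjusted p = 0.700). The part of any of these tissues in the crystallin values was not tested.

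Genes related to crystallins by name or sequence included 1 that rose. Of 13 measured outside the 10, Cryzl2, a relative of the quinone reductase ζ crystallin, rose by 1.17 (SE 0.12, limma adjusted p = 0.0367). Its levels were 6.85 and 6.60 in knockout and 5.56 in each control pool. Crym, a thyroid hormone binding protein also called μ crystallin, had 7.98 and 8.16 in knockout and 7.24 and 7.30 in control (log2 difference 0.80, SE 0.11, limma adjusted p = 0.0965). Crybg3 had 0.36 (adjusted p = 0.665), and both of these were named after their values were seen. Zeta and mu crystallin were named from the lenses of guinea pig and kangaroo. The median of the 13 genes was −0.043.

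Transcription factors and cofactors that act on crystallin genes gave 0 calls among 14 measured, with 1 gene, Nrl, at an unadjusted p under 0.05. Maf, the gene of c-Maf, had 5.70 and 6.16 in knockout and 5.93 and 6.14 in control, a log2 difference of −0.10 (SE 0.17, limma adjusted p = 0.964). Hsf2, a heat shock factor, had −0.21 (SE 0.10, limma adjusted p = 0.762). Its knockout arrays, at 7.68 and 7.79, lay below control, at 7.92 and 7.98, as in 18.4% of all genes. The median of the 14 was 0.054.

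The stress proteins nearest to the α crystallins did not pass either. Of the 8 other small heat shock protein genes, 0 were called by limma and 2 were higher at an unadjusted p under 0.05, where 3.71% of all genes were. Hspb1, the gene of HSP25, had 6.41 and 6.68 in knockout and 6.10 and 6.14 in control, a log2 difference of 0.43 (SE 0.12, limma adjusted p = 0.518). Hspb6 had 7.59 and 7.50 in knockout and 7.21 and 7.26 in control, a log2 difference of 0.31 (SE 0.10, adjusted p = 0.603). Both knockout arrays lay above both control arrays in each of these 2 genes, as in 17% of all genes. Hspb8, a partner of the cochaperone Bag3, had 6.11 and 6.03 in knockout and 6.19 and 5.55 in control, which overlapped. Of the 8 genes, 7 lay above 0, Hspb2 being the exception at −0.0071, and the median was 0.077.

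Among 17 other heat shock chaperones, 0 were called and 1 had an unadjusted p under 0.05. This was Hspa1a, an inducible HSP70, with 7.46 and 7.19 in knockout and 7.61 and 7.79 in control (log2 difference −0.37, SE 0.13, limma adjusted p = 0.645). Hspa4l had −0.22 (adjusted p = 0.765), and the median of the 17 was −0.022.

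Glial and rod genes on the same arrays gave a scale for these values. All 14 reactive gliosis genes lay above 0 with a median of 0.92, and 5 rose, with S100a6 at 1.83, A2m at 1.44, Cebpd at 1.40 and Osmr at 1.30 among them. Gfap, the filament of reactive glia, had 5.72 and 5.91 in knockout and 4.92 and 5.30 in control (log2 difference 0.70, limma adjusted p = 0.317). Müller glia genes had 0 calls among 12 and a median of 0.041, with Clu at 0.89 (adjusted p = 0.0583), Vim at 0.56 (adjusted p = 0.219) and Glul, glutamine synthetase, at −0.37 (adjusted p = 0.518). All 8 rod genes measured lay below 0, with a median of −1.03, and Gnat1 fell along with Reep6 (−1.99), Gnb1 (−1.47) and Rom1 (−1.24). In the cone list Gnb3 and Gnat2 rose by 1.59 and 1.10. Of its 8 genes 4 lay above 0 and 4 below, the lowest at −0.52, with a median of 0.069. The 11 bipolar, amacrine and ganglion cell genes had no call, with Gad1 at −0.26, Prkca at −0.20 and a median of −0.069. The lists were compared by these values only, without a test between them.

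**Figure D4:**
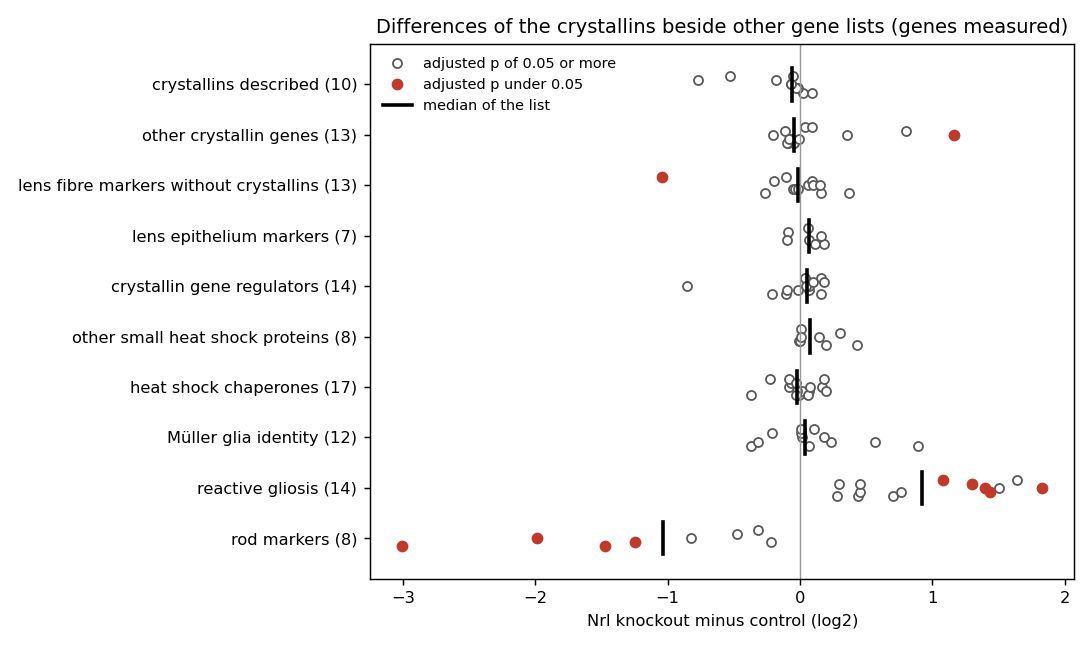
Nrl knockout minus control on the log2 scale for every measured gene of 10 lists, with filled points at an adjusted p under 0.05 by limma, open points otherwise and a bar at each list's median. The crystallin median is −0.061 with 0 filled points, beside 0.92 for reactive gliosis and −1.03 for rod genes.

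The genes most like the mean pattern of the crystallins, which single crystallins need not follow, were sought over the 4 arrays. The measure was the Euclidean distance between a gene's centred levels and the mean centred levels of the 10 crystallins. The nearest of 19411 other genes were Trp53i11 at 0.019, Olfr1047 at 0.019, Rnf150 at 0.021, Limk1 at 0.024 and Fbxw18 at 0.024, where the median over all was 0.29. Trp53i11 had 6.25 and 6.26 in knockout and 6.33 and 6.53 in control. Olfr1047, at 1.98 to 2.25 over the arrays, and Fbxw18, at 3.80 to 4.10, had low levels that cannot be told from background. None of the 5 was on a list of lens genes. With 4 arrays many genes share any given pattern, and this ranking was not tested.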

How the data were processed

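RNA of whole retinas was amplified with a NuGEN Pico kit, labelled with biotin and hybridised to 4 arrays, per the labels. The table the authors deposited holds 1 value per array for each of 21897 probe sets. The values the authors deposited were read as log2 from their range, 1.34 to 12.75, as no source names the scale. Affy and limma appear in the submitters' processing notes with no role; the background correction and normalization were not given in the sources used here. Without detection values, low levels and background cannot be separated. With so few arrays, precision is limited throughout.

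By the platform annotation, 20877 probe sets had a single gene symbol, 175 had several and 845 had none. RefSeq names of GRCm38.p6, looked up by gene ID, changed 0 symbols and lacked 36 IDs. A gene was represented by its probe set with the highest mean, giving 19421 genes, none filtered for signal. Genotype was the only term in limma 3.58.1 (R 4.3.3; lmFit and eBayes, two-sided), and p-values were adjusted by Benjamini-Hochberg over all genes, with calls at an adjusted p under 0.05. The steps were tested on 20 simulated sets of independent genes with 200 of 19421 changed. The spread of each simulated gene was drawn from the variance model that limma fitted to these arrays. No sex difference between replicates was simulated, so the shares called hold for that setting and can differ on the real arrays. A log2 change of 0.5 was called in 1.42% of the genes given it, and a change of 1 in 74.6%. Each p-value rests on how far pools of animals differed, with a gene's own variance moderated by that of all genes (6.17 degrees of freedom in total). An exact permutation test of 2 arrays against 2 cannot go below p = 0.333.

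The 10 genes and the lists (other crystallins, lens fibre and epithelium, crystallin regulators, small heat shock proteins, chaperones, glia, rods, cones, inner retina, pigment epithelium, ciliary body, erythrocytes and sex-linked genes) were chosen with earlier results of these data known. The text names all 10, a fixed set of context genes, the 5 genes nearest in pattern and, of other lists, up to 4 called genes or else the 2 with the smallest p. Caprin2, Pax6 and Prox1 are named for their signal level alone. Of the erythrocyte list Alas2 and Slc4a1 were measured, at −0.12 and −0.029 with no call. The labels give same-numbered replicates no shared animal or batch, though they matched in sex-linked genes, and a fit with the number as a block was an alternative.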

Additional observations from a re-analysis of the deposited data

How the results depend on the processing

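None of the 10 crystallins was called by limma under any of the 10 alternatives, whose lowest adjusted p was 0.170, for Crygd with arrays centred on their medians. The count of all genes called was less stable. Against 39, it was 8 with the replicate number as a block, 128 with a variance trend and 89 where genes under the 50th percentile were left out, and ran from 0 to 11 when 1 array was left out (0 without either control replicate, with 1355 and 1328 genes at an unadjusted p under 0.05, 7 without knockout replicate 1 and 11 without knockout replicate 2). The cause was not tested. Crystallins at an unadjusted p under 0.05 numbered 1 with the replicate block, which kept Crygd and not Crygs, 0 with the signal filter, which tested only 6 of the 10 and left out Crygd and Crygs, and 1 to 3 when 1 array was left out. Deviations of same-numbered arrays from their group means correlated at 0.239 across genes. The labels tie same-numbered pools to no shared animal or batch, but their sex-linked genes match, so the block also takes up sex.

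Crygd and Crygs stayed below 0 in all 9 alternatives that tested them, from −0.999 to −0.54 and from −0.77 to −0.29. Of 96 recomputed fold changes of the 10 genes, 83 kept their direction. Cryab turned to 0.0024 after quantile normalization. With 1 array left out the value of Cryaa ran from −0.045 to 0.092, Cryab from −0.16 to 0.12, Cryba1 from −0.18 to 0.038, Cryba2 from −0.44 to 0.077, Cryba4 from −0.17 to 0.053, Crybb1 from −0.13 to 0.31, Crybb2 from −0.096 to 0.035 and Crybb3 from −0.21 to 0.082.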
